A study of Mus musculus with 15 samples.

Results

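The transcripts described here encode the proteins of the cytosolic ribosome. Members were taken by name: the entries for RPL and RPS proteins with a number and at most an A, X or L suffix, the P stalk proteins RPLP0 to RPLP2, and RPSA. RPS27L and the RPS6K kinases were left out. The rule found 82 genes among 32434 entries. Of these, 76 passed the filter on low counts and were among the 11773 genes tested. Expression was measured by RNA sequencing in 5 mouse myeloma lines, IL6Myc-1 to IL6Myc-5, grown from mice of the IL6Myc genotype, an immunocompetent model of multiple myeloma. All lines share that genotype. Neither its alleles nor a treatment, an age or a normal plasma cell control is given in the labels. Each line had 3 technical replicates, 15 libraries in all, so the p-values measure the spread between libraries of 1 line and not between animals.

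The ribosome has a small subunit, which decodes the mRNA, and a large subunit, which joins the amino acids. Their proteins are made in matched amounts, and most of their mRNAs begin with a 5′ terminal oligopyrimidine tract (TOP), through which growth signals control their translation. Ribosomal protein genes are among the best known targets of MYC, and plasma cells depend on high translation to secrete antibody. The mouse genome also holds many processed copies of these genes, so that a read from 1 mRNA can match several places.

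The libraries held 19068537 to 41165626 counts. All 8 plasma cell markers examined (Sdc1, Xbp1, Irf4, Prdm1, Jchain, Igkc, Igha and Tnfrsf17) were detected in every line. Their summed level was 44200 to 110000 CPM (counts relative to the size of the library, after the scaling given below). The erythroid markers Alas2 and Hbb-bt and the cytotoxic marker Gzmb had 0 counts in all lines. The summed level of 6 T and NK cell markers was highest in IL6Myc-4, with 24.3 to 25.7 CPM. IL6Myc-1 and IL6Myc-2 had 10.8 to 14.5 CPM, whereas IL6Myc-3 and IL6Myc-5 had 1.86 to 4 CPM. The summed level of 5 stromal and endothelial markers, nearly all of it Pecam1, was 14.3 to 27.2 CPM. The summed level of 6 myeloid markers was 72.5 to 122 CPM in 4 lines and 465 to 516 CPM in IL6Myc-4, where C1qb made up 490 CPM. Immunoglobulin entries took 12.4% of counts in IL6Myc-2 and 5.71% to 7.27% in the other lines. The 18S rRNA entry took 0.53% to 0.553% in IL6Myc-2 and 0.132% to 0.448% in the 12 other libraries. With immunoglobulin entries removed, the members' medians described below were the same in all 5 lines to 2 decimals, and their summed share became highest in IL6Myc-2 (11.3%, with 11.1% in IL6Myc-5). The part of the other marker and rRNA differences in the results below was not tested.

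The coding sequence of Rps27, a small subunit protein with a zinc finger, is printed first because it shows why single entries need care. The 252 coding bases up to the stop codon, read from GENCODE M21, were as follows.

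Rps27: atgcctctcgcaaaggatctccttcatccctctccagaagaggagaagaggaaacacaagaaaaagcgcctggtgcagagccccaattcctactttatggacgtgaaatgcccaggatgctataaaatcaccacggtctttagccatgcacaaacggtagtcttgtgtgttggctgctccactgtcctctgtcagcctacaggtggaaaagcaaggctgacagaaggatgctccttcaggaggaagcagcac

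The entry Rps27rt carried the same 252 bases with 0 substitutions. Coding sequences of Rpl12 (495 bases), Rpl10 (642 bases) and Rpl5 (891 bases) were likewise found whole in Gm10275, Rpl10-ps3 and Gm15500. Rps2, a small subunit protein near the mRNA entry channel, differed from Rps2-ps10 at 5 of 879 coding bases. A stretch from base 418 to base 478 of the coding sequence shows 2 of these substitutions in capitals, C444T and C453A, counted from the first coding base with the base of Rps2 first.

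Rps2: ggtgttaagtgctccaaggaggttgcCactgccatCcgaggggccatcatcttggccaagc
Rps2-ps10: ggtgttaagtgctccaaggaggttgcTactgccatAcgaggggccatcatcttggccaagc

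The longest stretch of the coding sequence without a substitution had 302 bases. Rpl32l, Rpl6l and Rps4l had no coding transcript of that name in GENCODE M21 and could not be searched for copies. In all, 68 of the 82 members had at least 1 other entry whose transcript matched their coding sequence at 95% identity or more over 90% or more of its length. Counts of such a member and its copies cannot be told apart by sequence where the letters are the same.

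Ribosomal protein transcripts took a different share of the library in each line. The summed counts of the 82 members were 9.23%, 9.51% and 9.3% of all counts in the libraries of IL6Myc-1. They were 10%, 10.1% and 9.94% in IL6Myc-2, and 10.3%, 9.83% and 11% in IL6Myc-5. The share was 8.06%, 8.04% and 8.29% in IL6Myc-3, and 7.64%, 7.63% and 7.67% in IL6Myc-4. The libraries of IL6Myc-3 and IL6Myc-4 thus lay below all 9 others, and those of IL6Myc-2 and IL6Myc-5 overlapped. In bulk RNA a share cannot tell fewer cells from less RNA per cell.

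All levels in CPM, those of the markers above included, are after scaling of the library sizes by the trimmed mean of M-values (TMM). On that scale the summed level was 117000 ± 1260 CPM in IL6Myc-2, 105000 ± 6060 CPM in IL6Myc-5, 89500 ± 1950 CPM in IL6Myc-1, 76700 ± 1160 CPM in IL6Myc-3 and 71500 ± 749 CPM in IL6Myc-4 (SD, n = 3). The order of IL6Myc-2 and IL6Myc-5 is thus set by the scaling, whose factors were 0.848 to 0.86 in IL6Myc-2 and 0.988 to 0.99 in IL6Myc-5. The other 3 lines kept their places on both scales.

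**Figure D1:**
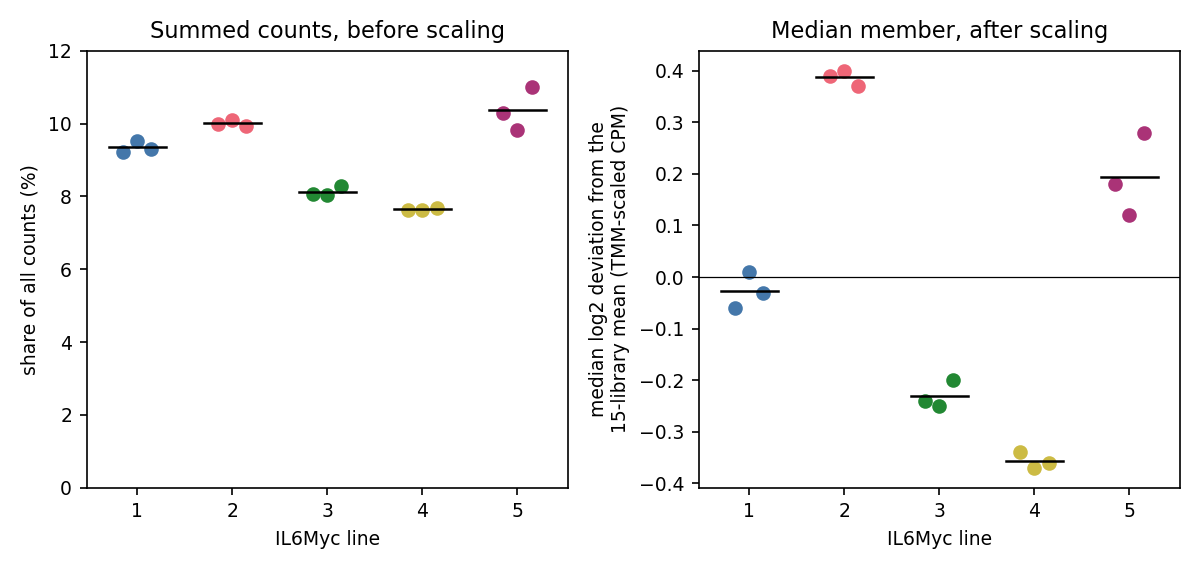
Left, share of all counts in the 82 ribosomal protein genes (percent) in each of the 15 libraries; right, median log2 deviation of the 76 tested genes from their mean over the libraries, on TMM-scaled CPM. Points are libraries and bars are line means; IL6Myc-5 is highest on the left (10.4%) and IL6Myc-2 on the right (0.39), and IL6Myc-4 is lowest on both.

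Most ribosomal protein genes moved in the same direction in a given line. In IL6Myc-2, 72 of 76 were higher than the mean of the other 4 lines at any size and 0 were lower (edgeR's quasi-likelihood test with Benjamini-Hochberg adjustment over all tested genes, adjusted p under 0.05). Of all genes, 33.4% were higher and 32.2% lower in that comparison. The median member lay 0.47 higher on the log2 scale, 1.39-fold, and the median of all genes was at -0.009. The 4 members that did not differ were Rpl5, Rpl10, Rpl12 and Rps27, each with most of its counts in near-identical entries (below). IL6Myc-5 had 67 members higher and 1 lower, against 28.9% and 25.9% of all genes, with a median of 0.23.

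The opposite was measured in IL6Myc-3 and IL6Myc-4. In IL6Myc-4, 73 members were lower and 1 was higher, against 27.4% and 28.6% of all genes, and the median was -0.43. In IL6Myc-3, 64 were lower and 0 higher, against 26.4% and 27.2% of all genes, and the median was -0.29. IL6Myc-1 was mixed, with 19 members higher and 27 lower, against 34.3% and 33.9% of all genes, and a median of -0.03. These 5 comparisons share libraries and are not independent of each other.

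With library sizes from total counts the median of all genes moved by up to 0.28 on the log2 scale. In IL6Myc-2 it then stood at -0.29, with the members at 0.19 (56 higher and 3 lower), and in IL6Myc-1 the members' median turned to 0.05 (28 higher and 17 lower). Relative to the median of all genes the members lay at -0.04, 0.48, -0.29, -0.43 and 0.23 in IL6Myc-1 to IL6Myc-5 under TMM. A scaling moves members and all genes alike, so these 5 values are the same with total counts by construction.

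**Figure D2:**
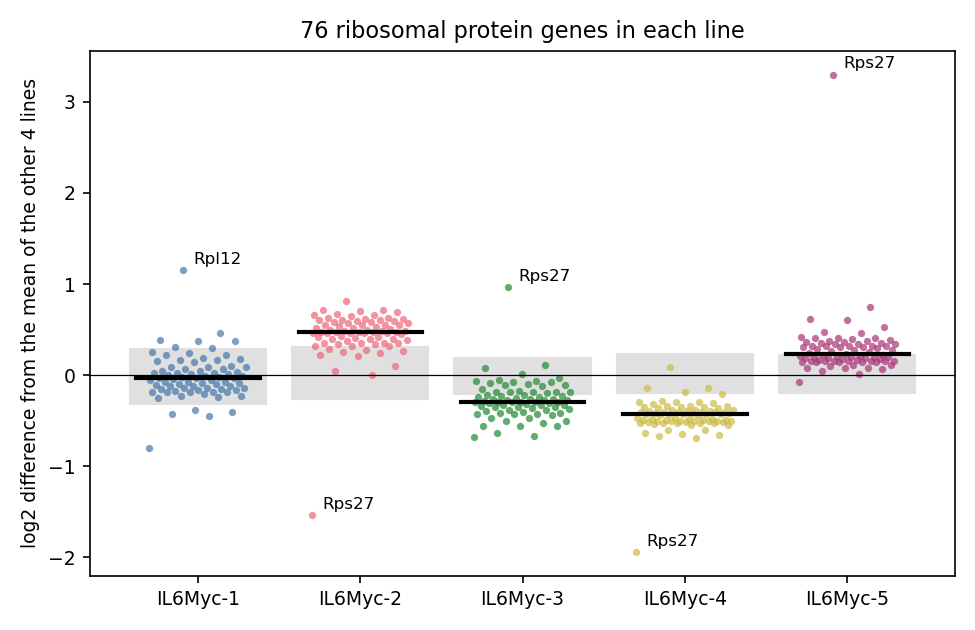
log2 difference of each of 76 ribosomal protein genes in a line from the mean of the other 4 lines; points are genes, black bars are their medians (-0.03, 0.47, -0.29, -0.43 and 0.23 for IL6Myc-1 to IL6Myc-5) and grey boxes span the middle 50% of all 11773 tested genes. The members form a narrow band in every line, with Rps27 and Rpl12 outside it.

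The band was narrow in each line. The interquartile range of the members' log2 differences was 0.13 in IL6Myc-4 and 0.24 in IL6Myc-1, against 0.43 and 0.61 for all genes. In IL6Myc-2 all 3 libraries lay above the 12 others for 41 of 76 members, against 13.8% of all genes. In IL6Myc-4 all 3 lay below the 12 others for 37 members, against 6.72% of all genes. In IL6Myc-1, 3 members lay above (Rpl12, Rpl35 and Rpl7a), against 14.5% of all genes. Rpl13 and Rps24 lay above in IL6Myc-5, as did 6.41% of all genes, and Rpl15 and Rpl19 lay below in IL6Myc-3, as did 5.14% of all genes. IL6Myc-2 had the highest mean for 59 members and IL6Myc-4 the lowest for 65. The complete order IL6Myc-2, IL6Myc-5, IL6Myc-1, IL6Myc-3, IL6Myc-4 was found in 35 members, and 12 others differed from it by a swap of IL6Myc-1 and IL6Myc-3.

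The differences were small in size. Between the highest and the lowest line the median fold was 1.71. For 61 members it lay between 1.5 and 2, for 9 it was under 1.5 and for 6 over 2. In an F-test over the 5 lines 75 of 76 members differed at any size, against 91.7% of all genes, and the median log2 range of 0.77 was close to the 0.7 of all genes. With a log2 range of at least 1 as well, 6 members were called (Rpl12, Rpl36, Rpl37a, Rps10, Rps19 and Rps27), against 32.1% of all genes. With library sizes from total counts, without a TMM factor, 2 were called (Rpl12 and Rps27) and the median range was 0.53. Among all 10 pairs of lines, the widest median was that of IL6Myc-2 over IL6Myc-4, at 0.73 or 1.66-fold, with 74 members higher against 30% of all genes. With the size threshold 4 of them were called higher, against 8.32% of all genes. The closest was IL6Myc-3 over IL6Myc-4, at 0.11 or 1.08-fold, with 34 members higher and 3 lower against 26.6% and 26.5% of all genes.

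Of the called members, Rps19, Rps10, Rpl36 and Rpl37a followed the list, with a wider span. Rps19, a small subunit protein needed for 18S rRNA maturation and mutated in Diamond-Blackfan anaemia, had levels of 1040, 1220 and 1190 CPM in the IL6Myc-1 libraries, and those of IL6Myc-2 were at 2050, 1920 and 1950 CPM. It measured 1210, 1190 and 1240 CPM in IL6Myc-3, 946, 879 and 874 CPM in IL6Myc-4, and 1210, 1120 and 1470 CPM in IL6Myc-5. IL6Myc-2 lay above and IL6Myc-4 below all other libraries, and IL6Myc-1, IL6Myc-3 and IL6Myc-5 overlapped. Rps19 was 2.19-fold higher in IL6Myc-2 than in IL6Myc-4 (log2 difference 1.13 ± 0.08 SE, edgeR adjusted p = 2.06e-09).

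Rps10, a small subunit protein at the mRNA entry side and another Diamond-Blackfan gene, had levels of 1240, 1280 and 1270 CPM in the IL6Myc-1 libraries, and those of IL6Myc-2 were at 1580, 1640 and 1620 CPM. It measured 835, 824 and 839 CPM in IL6Myc-3, 741, 750 and 804 CPM in IL6Myc-4, and 1360, 1230 and 1450 CPM in IL6Myc-5. IL6Myc-2 was again above and IL6Myc-4 below every other library, at a log2 difference of 1.08 ± 0.05 between them (edgeR adjusted p = 9.77e-12). Rpl37a, a large subunit protein with a zinc finger, measured 1660 ± 58.9 CPM in IL6Myc-2 and 802 ± 29.6 CPM in IL6Myc-4 (SD, n = 3). Rpl36, a large subunit protein, measured 817, 741 and 789 CPM in IL6Myc-2 and 351, 348 and 381 CPM in IL6Myc-3, its lowest line. Rpl36 in IL6Myc-2 overlapped with IL6Myc-5, which measured 656, 618 and 752 CPM.

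Rps27 was the member with the widest range, and its range came from single libraries. It measured 335, 20.2 and 10.4 CPM in the libraries of IL6Myc-5, and 5.66, 6.97 and 86 CPM in those of IL6Myc-3. IL6Myc-1 had 10.4, 13.5 and 14.4 CPM, IL6Myc-2 9.69, 7.27 and 8.03 CPM, and IL6Myc-4 5.68, 5.8 and 8.6 CPM. Apart from replicate 1 of IL6Myc-5 and replicate 3 of IL6Myc-3 all libraries lay at or below 20.2 CPM. IL6Myc-5 was called higher than the other lines, as were 4.8% of all genes (log2 difference 3.30 ± 0.70, edgeR adjusted p = 0.000759). Without its replicate 1 the difference was 0.28 (adjusted p = 0.759), and limma on log2(CPM + 1) gave 1.94 (adjusted p = 0.0712).

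In both of those libraries the identical entry Rps27rt was at its lowest for the line. Its IL6Myc-5 libraries were at 426, 609 and 720 CPM, and those of IL6Myc-3 at 430, 439 and 407 CPM. The sum of both entries was 707 ± 68.8 CPM in IL6Myc-5, 756 ± 17.8 CPM in IL6Myc-2, 677 ± 42.5 CPM in IL6Myc-1, 458 ± 30.7 CPM in IL6Myc-3 and 459 ± 16.8 CPM in IL6Myc-4 (SD, n = 3). In this sum the lines with high and low levels were those of the whole list. The log2 range fell from 4.19 for Rps27 alone to 0.72 for the sum.

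Rpl12, part of the base of the stalk that recruits elongation factors, was the other member called in a line against the rest. Its level was 199, 231 and 218 CPM in the IL6Myc-1 libraries, and those of IL6Myc-2 were at 119, 118 and 123 CPM. It measured 76.7, 83 and 76.1 CPM in IL6Myc-3, 86.6, 73.1 and 76.2 CPM in IL6Myc-4, and 114, 115 and 127 CPM in IL6Myc-5. All libraries of IL6Myc-1 lay above the 12 others, with a log2 difference of 1.15 ± 0.05 (edgeR adjusted p = 2.61e-12). Of all genes, 4.39% were called higher in that line.

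The entry Gm10275, with the same coding sequence as Rpl12, was far more abundant and had another order. It measured 1830 ± 39.5 CPM in IL6Myc-1, 2210 ± 41.9 CPM in IL6Myc-2, 1120 ± 30 CPM in IL6Myc-3, 1180 ± 23.8 CPM in IL6Myc-4 and 1730 ± 140 CPM in IL6Myc-5 (SD, n = 3). With all 5 near-identical entries added, Rpl12 was highest in IL6Myc-2, at 2330 ± 42.2 CPM, and IL6Myc-1 followed with 2050 ± 54.9 CPM. The difference of IL6Myc-1 from the other lines was then 0.36 ± 0.04 (edgeR adjusted p = 1.16e-07), below the size threshold. Rpl12 itself held 10.5% of this sum in IL6Myc-1 and 5.15% to 6.54% in the other lines.

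Rpl10, a large subunit protein that joins the particle last, was the member without a detectable difference in the F-test (edgeR adjusted p = 0.906). IL6Myc-1 had 858, 690 and 780 CPM, IL6Myc-2 had 730, 656 and 854 CPM, and IL6Myc-3 had 565, 665 and 973 CPM. IL6Myc-4 had 707, 914 and 443 CPM, and IL6Myc-5 had 905, 774 and 680 CPM. The libraries of all lines overlapped, and the spread within IL6Myc-4 was over 2-fold. Together with its 9 near-identical entries, of which Rpl10-ps3 was the main one, the level was 3050, 3020 and 3020 CPM in IL6Myc-4 and 4530, 4680 and 4710 CPM in IL6Myc-2. The sum thus had a narrow spread within IL6Myc-4, and it differed between the lines with a log2 range of 0.61 (edgeR adjusted p = 1.16e-09).

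**Figure D3:**
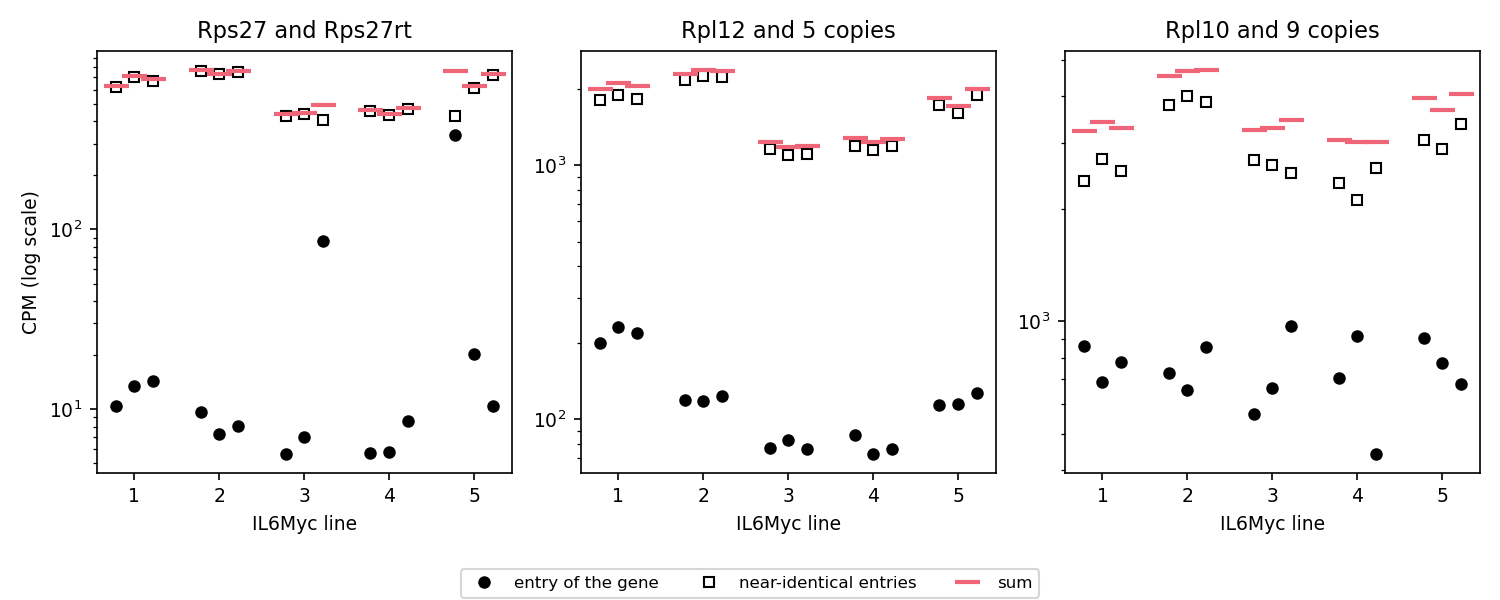
CPM on a log axis in each library for Rps27, Rpl12 and Rpl10: the entry of the gene (filled circles), its near-identical entries (open squares) and their sum (red dashes). For Rps27 the first library of IL6Myc-5 is at 335 CPM for the gene and 426 CPM for the copy, and the sums of all 3 genes are highest or nearly so in IL6Myc-2.

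The lowest members by level also had such copies or, for Rps18, other pseudogene entries. Rpl5, which carries 5S rRNA into the large subunit together with Rpl11, measured 42 ± 0.268 CPM in IL6Myc-4 and 55.5 ± 3.42 to 59.8 ± 4.94 CPM in the other lines, while its copies held 2230 ± 65.6 CPM in IL6Myc-4 and 3260 ± 114 CPM in IL6Myc-2. With copies, Rpl5 was higher in IL6Myc-2, by 0.31, where the gene alone was at 0.05 (edgeR adjusted p = 0.417). Rps2 measured 11.6 ± 0.643 to 20.9 ± 0.557 CPM, and its copies 1560 ± 66.6 CPM in IL6Myc-4 and 3160 ± 92.3 CPM in IL6Myc-2. Its log2 range was 0.85 alone and 1.02 with copies, so that Rps2 then passed the size threshold. Rps18, which contacts the large subunit in the head of the small one, measured 57.5 ± 4.02 CPM in IL6Myc-3 and 101 ± 3.6 CPM in IL6Myc-2. The pseudogene entries Rps18-ps5 and Rps18-ps6 were higher than Rps18 itself, at 984 ± 13 and 2000 ± 45 CPM in IL6Myc-2. Neither was among the near-identical entries found.

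Adding the near-identical entries was an alternative chosen after the values had been seen. It changed the outlying members and left the rest close to where they were. For 11 members most of the summed counts lay in the copies, and in 7 of these the main copy was 100% identical. For 49 members the gene's own entry held over 90% of the sum. These include Rps18 and Rps7, whose most abundant pseudogene entries were not found as near copies and stayed outside the sum. Rps7-ps3 measured 1110 ± 19.1 CPM in IL6Myc-2, where Rps7 itself was at 593 ± 16.6 CPM. After addition all 76 members were positive in IL6Myc-2, from 0.21 to 0.81 on the log2 scale, and the widest range was 1.13 (Rps19). The called members were then Rpl36, Rpl37a, Rps10, Rps19 and Rps2.

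**Figure D4:**
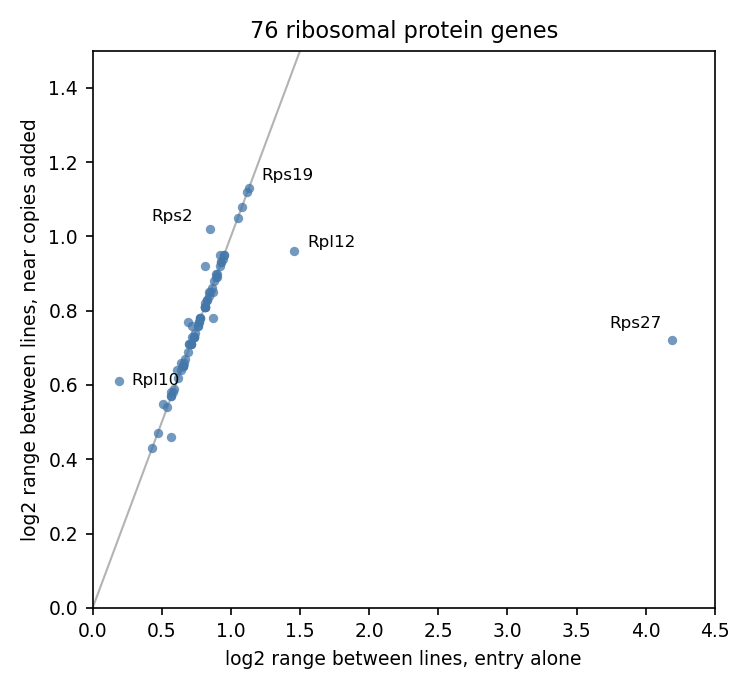
log2 range over the lines for each of 76 genes, from the gene's own entry (horizontal) and with near-identical entries added (vertical); the grey line marks equal values and the axes have different scales. Rps27 moves from 4.19 to 0.72, Rpl12 from 1.46 to 0.96 and Rpl10 from 0.19 to 0.61, while most genes lie on the line.

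By position in the ribosome the list moved as a whole. The median log2 differences for IL6Myc-1 to IL6Myc-5 were 0, 0.45, -0.29, -0.42 and 0.20 for the 43 large subunit genes outside the stalk. For the 30 small subunit genes they were -0.13, 0.53, -0.28, -0.47 and 0.27. A difference between the subunits was not tested. The P stalk, the flexible arm that activates elongation factors, moved as the rest did. Rplp0, the stalk's base, measured 2650, 2690 and 2660 CPM in IL6Myc-2 and 1600, 1580 and 1560 CPM in IL6Myc-4. Rplp1 differed by 0.52 ± 0.04 in IL6Myc-2 and by -0.49 ± 0.04 in IL6Myc-4, and Rplp2 by 0.47 ± 0.03 and -0.65 ± 0.04.

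Other members with known roles beside the ribosome gave similar values. Rpsa, also known as the laminin receptor, measured 3950 ± 55.2, 3920 ± 267 and 2380 ± 51.8 CPM in IL6Myc-2, IL6Myc-5 and IL6Myc-4. Rps27a, made as a fusion with ubiquitin, measured 2640 ± 34.6 CPM in IL6Myc-2 and 1640 ± 47.6 CPM in IL6Myc-4. Rpl11, which binds MDM2 when ribosome assembly fails, measured 1420 ± 47.5 CPM in IL6Myc-2, above all other libraries, and 959 CPM in both IL6Myc-3 and IL6Myc-4. The 9 Diamond-Blackfan genes among the members had medians of 0.49 in IL6Myc-2 and -0.45 in IL6Myc-4, and the 17 members that host small nucleolar RNAs had 0.40 and -0.47.

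Levels per length differed more between members than between lines. Per kilobase of transcript, Rplp1 was at 4210 CPM, Rpl41, the shortest ribosomal protein, at 4160 CPM and Rpl4 at 3130 CPM. The median over the 76 tested members was 1430 CPM per kilobase. The lowest were Rps2 at 14.2, Rpl5 at 26.6, Rpl12 at 98.2, Rps27 at 106 and Rps18 at 144 CPM per kilobase, all with more counts in copies or pseudogene entries than in their own. The length is that of 1 GENCODE transcript per gene, and a length correction made upstream would shift these values.

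The 6 untested members were the paralogues Rpl10l, Rpl32l, Rpl39l, Rpl3l, Rpl6l and Rps4l. Each had 0 to 6 counts over the 3 libraries of a line. Rpl3l, a muscle form of Rpl3, had 0 counts in IL6Myc-3 and IL6Myc-5, which allows at most 0.0364 and 0.0426 CPM. The own entry of Rpl3, its widely expressed relative, measured 766 ± 12.9 CPM in IL6Myc-2 and 418 ± 28.5 CPM in IL6Myc-4. Near-identical entries of Rpl3 held more, at 2390 ± 21.7 CPM in IL6Myc-2 and 1330 ± 23.1 CPM in IL6Myc-4. Rps4x and Rpl39, the relatives of Rps4l and Rpl39l, measured 3770 ± 70.2 and 960 ± 23.3 CPM in IL6Myc-2 and 2390 ± 2.99 and 613 ± 49.1 CPM in IL6Myc-4. The paralogues were thus at the limit of detection in all 5 lines, and the limits cover counting error only.

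A few members departed from the list in 1 or 2 lines. Rpl15, a large subunit protein, was the single member higher in IL6Myc-4 than in the other lines, at 596, 606 and 583 CPM (0.09 ± 0.03, edgeR adjusted p = 0.0327). This difference no longer passed with near copies added (0.02, edgeR adjusted p = 0.619), with pseudogene entries added or under limma. Nor did it pass without replicate 3 of IL6Myc-1 or IL6Myc-2, or without replicate 1 or 2 of IL6Myc-3 or IL6Myc-4. It measured 388, 394 and 421 CPM in IL6Myc-3, below every other library, and 451, 466 and 441 CPM in IL6Myc-1. Rps24, a small subunit protein and Diamond-Blackfan gene, was likewise low in IL6Myc-1 (1260 ± 51.9 CPM) and IL6Myc-3 (1170 ± 42.6 CPM), and above all other libraries in IL6Myc-5 (2180, 2250 and 2360 CPM). Both genes lie on chromosome 14. The 374 tested genes of that chromosome had medians of -0.32 in IL6Myc-1, -0.25 in IL6Myc-3 and 0.36 in IL6Myc-4, beside -0.42, -0.6 and -0.03 for these 2 members.

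Rpl13, a large subunit protein, was highest in IL6Myc-5 rather than in IL6Myc-2, with 1580 ± 120 and 1350 ± 11.8 CPM in these lines (SD, n = 3). It lies on chromosome 8, whose 606 tested genes had a median of 0.38 in IL6Myc-5. Rpl7a and Rpl35, large subunit proteins on chromosome 2, lay above all other libraries in IL6Myc-1, with 1950, 2030 and 1980 CPM for Rpl7a and 843, 900 and 845 CPM for Rpl35. The 4 members on that chromosome had a median of 0.42 in IL6Myc-1, and all 952 tested genes there a median of 0.33. Whether chromosome copy number had a part in these values was not tested. Rpl29 and Rps25 varied least apart from Rpl10, with log2 ranges of 0.43 and 0.47.

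Genes of related function were set beside the members, each compared with the other 4 lines by the same edgeR test. Fau and Rack1, ribosomal proteins whose names lie outside the rule, had the order of the list: Rack1 measured 4080 ± 73 CPM in IL6Myc-2 and 2440 ± 34.3 CPM in IL6Myc-4, and Fau 1250 ± 11.6 and 712 ± 42.6 CPM. The 10 tested entries of this kind include Rps27rt and Rpl10-ps3, which carry the coding sequences of the members Rps27 and Rpl10. The list is thus not independent of the members. Of the 10 entries, 10 were higher in IL6Myc-2, against 33.4% of all genes, and 8 lower in IL6Myc-4, against 27.4%. With total counts 6 were higher and 1 lower in IL6Myc-2, and the median there went from 0.43 to 0.14, where all genes were at -0.29. Of 21 translation factors and other mRNAs with a TOP tract, 19 were higher in IL6Myc-2 and 0 lower, against 33.4% and 32.2% of all genes. In IL6Myc-5, 19 were higher and 0 lower, against 28.9% and 25.9%. In IL6Myc-4, 20 were lower and 0 higher, against 27.4% and 28.6%. With total counts their median in IL6Myc-2 was -0.01 (9 higher and 7 lower), where all genes were at -0.29. Eef1a1, which delivers tRNAs, measured 18300 ± 168, 17900 ± 185 and 10500 ± 162 CPM in IL6Myc-2, IL6Myc-5 and IL6Myc-4. Eef2, which moves the ribosome along the mRNA, measured 8500 ± 205, 7480 ± 206 and 4730 ± 52.6 CPM in the same lines.

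Genes that host small nucleolar RNAs had another order. Of 12 tested, 11 were higher in IL6Myc-1 and 12 lower in IL6Myc-4, with medians of 0.66 and -0.77, against 34.3% and 27.4% of all genes. In IL6Myc-2, 8 were higher and 3 lower, against 33.4% and 32.2% of all genes, with a median of 0.35. Gas5, whose spliced RNA has a TOP tract, measured 669 ± 21.9 CPM in IL6Myc-1, 739 ± 10.9 CPM in IL6Myc-2 and 304 ± 19.8 CPM in IL6Myc-4. Snhg3 (10.8 ± 0.447 CPM) and Zfas1 (51.3 ± 0.787 CPM) were the 2 of 12 called lower in IL6Myc-4, at -1.17 and -1.14, against 4.37% of all genes.

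Lists that act on ribosomal proteins or on their translation had medians closer to that of all genes in IL6Myc-2 and IL6Myc-4 than the members had. The 18 genes of cap binding and mTORC1 control had medians of 0.13 in IL6Myc-2 and -0.10 in IL6Myc-4, and the 13 chaperones and importers of ribosomal proteins had -0.03 and -0.07. The 13 ribosome quality control genes had 0.01 and -0.07. Tsc2, a brake on mTORC1, was called lower in IL6Myc-1, at 18.5 ± 1.75 CPM against 33.6 ± 2.68 to 43.1 ± 5.85 CPM in the other lines (8.11% of all genes were called lower there).

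Myc itself did not have the order of the list. It measured 1600, 1490 and 1490 CPM in IL6Myc-2 and 1370, 1360 and 1380 CPM in IL6Myc-4, the line with the lowest ribosomal protein level. IL6Myc-3 had 1010, 1080 and 1000 CPM, below all other libraries. Mycl, a relative of Myc, measured 3.53 ± 0.473 CPM or less in every line, a level at which single counts matter. The median over the 9 tested genes of the MYC network was 0.14 in IL6Myc-2 and 0.04 in IL6Myc-4. With total counts it was -0.14 and 0.16, where all genes were at -0.29 and 0.12. Trp53, the p53 gene whose protein is stabilised when ribosome assembly fails, measured 148 ± 2.88 CPM in IL6Myc-2 and 80.7 ± 2.13 CPM in IL6Myc-4.

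**Figure D5:**
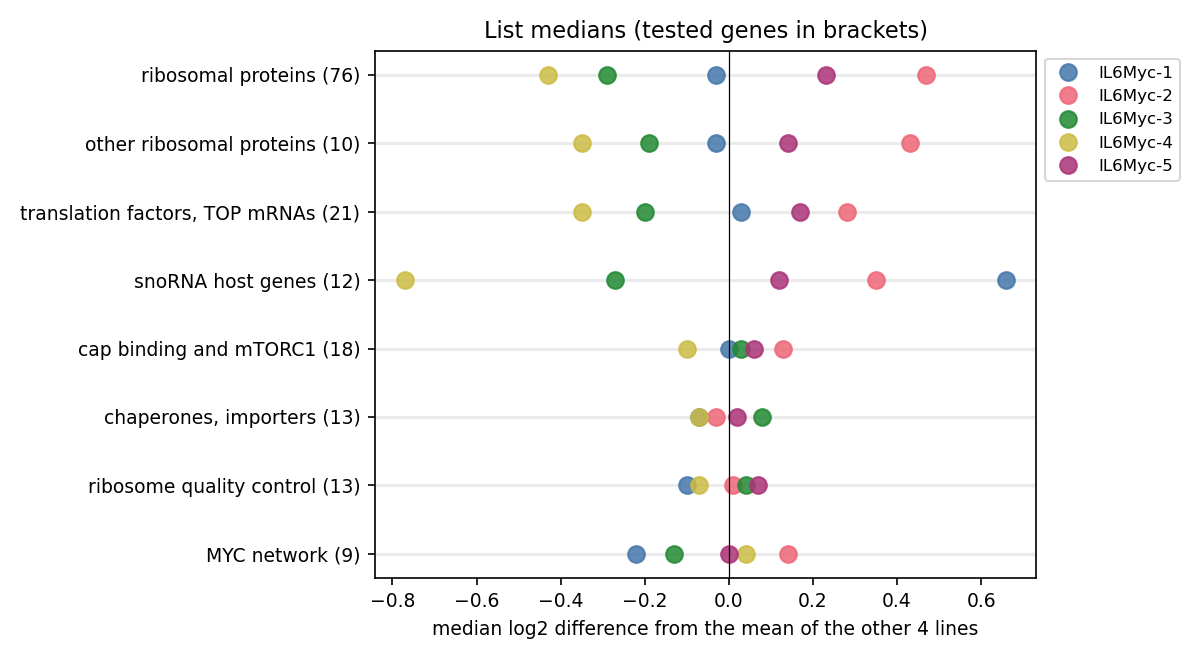
Median log2 difference of each list in a line from the mean of the other 4 lines; points are lines and the number of tested genes stands in brackets. Ribosomal proteins, other ribosomal proteins and TOP mRNAs spread from IL6Myc-4 (-0.43, -0.35 and -0.35) to IL6Myc-2 (0.47, 0.43 and 0.28). The other ribosomal proteins include Rps27rt and Rpl10-ps3, copies of members. The snoRNA host genes spread from IL6Myc-4 (-0.77) to IL6Myc-1 (0.66). The lists below them lie closer to 0, with the MYC network in IL6Myc-1 (-0.22) farthest from it.

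Since the members moved together, their promoters are shown for Rps19 and Rps10, which had wide ranges with few counts in copies, and for Rps27 and Rpl12, whose entries stood apart. Windows of 250 bases before to 50 after the start were found for 56 of 76 tested members in RefSeq (GRCm38.p6), 66 windows in all. The stretches run from 100 bases before the start to 20 after it. Capitals mark matches, on either strand, to any of 6 motifs. The core of binding sites for ETS factors was searched as CCGGAAG. For the factor YY1, which binds many ribosomal protein promoters, the letters searched were AAGATGG. The E-box bound by MYC and its relatives was searched as CACGTG. For the TATA box, which places the start of transcription, the letters were TATAAA. A pyrimidine hexamer, as found at the start of TOP mRNAs, was searched as CTTTCC. The longest was CTCGCGAGA, which overlaps with its own reverse complement. Rps19, chr7:24884492-24884611, plus strand, is the first of 3 windows of that gene, Rps10 lies at chr17:27635225-27635344, minus strand, Rps27 at chr3:90213629-90213748, minus strand, and Rpl12 at chr2:32961612-32961731, plus strand.

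Rps19: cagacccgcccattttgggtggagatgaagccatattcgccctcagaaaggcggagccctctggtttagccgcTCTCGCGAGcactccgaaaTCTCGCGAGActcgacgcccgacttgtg
Rps10: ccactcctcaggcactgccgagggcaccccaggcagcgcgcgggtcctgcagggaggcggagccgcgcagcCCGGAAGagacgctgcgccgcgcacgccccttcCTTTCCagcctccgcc
Rps27: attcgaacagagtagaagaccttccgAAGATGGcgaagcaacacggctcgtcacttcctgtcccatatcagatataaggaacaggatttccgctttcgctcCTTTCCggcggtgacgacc
Rpl12: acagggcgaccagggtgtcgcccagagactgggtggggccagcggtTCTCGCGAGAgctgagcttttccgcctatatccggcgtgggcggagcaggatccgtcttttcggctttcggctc

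Rps10 and Rps27 carried the pyrimidine hexamer CTTTCC just after the start. The same stretches of Rpl37a, which also had a wide range with few counts in copies, and of Rpl10 had no match and are not printed. Of the other Rps19 windows, that at chr7:24884576-24884695 had matches and that at chr7:24884813-24884932 had none. CCGGAAG was found in 36.4% of the 66 member windows and in 8.9% of all 32851 windows. CTCGCGAGA was found in 12.1% and 0.7%, AAGATGG in 16.7% and 6.3%, and CTTTCC in 50% and 26.6%. CACGTG was found in 12.1% and 7.2%, and TATAAA in 9.1% and 13.6%. These are counts of letters, with no test, and no binding was measured.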

How the data were processed

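Expression was measured by RNA sequencing (RNeasy mini extraction and a stranded total RNA TruSeq library, per the labels' protocols) in 5 lines with 3 technical replicates each. The submitters' processing notes name Trim Galore 0.4.0, DESeq2 and GRCm39. Which aligner, quantifier and annotation they used is not given in the sources used here. As deposited, the table is named for TPM, but its columns sum to different totals, so its values were taken as the authors' estimated counts per entry, rounded to whole numbers and tested as such. The test set for TPM, limma on a log scale, became an alternative. A quantifier's length correction, if made, is carried along, and 1 further column was not used.

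Genes that reached 1 CPM in 3 or more libraries were fitted in edgeR 4.0.16 (R 4.3.3) with TMM scaling and the line as factor over all 15 libraries: an F-test, all pairs, and a line against the average of the 4 remaining ones. Adjusted p-values are Benjamini-Hochberg over 11773 genes. A call asks for an adjusted p under 0.05 and a log2 difference of at least 1; "higher" and "lower" without a size ask for the first alone. The floor of a count of 0 is 3 counts over a line. Counts were simulated for IL6Myc-1 against the other lines (11413 genes) and judged by an adjusted p under 0.05 alone. Of genes changed 1.4-fold 89 of 97 were recovered, and of those changed 2-fold 99 of 99, while 15 unchanged genes also passed. The simulation gave every gene the same dispersion, so it does not cover entries that varied widely within a line, such as Rps27.

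Near-identical entries were found with blastn 2.17.0 against GENCODE M21 transcripts (GRCm38), not the submitters' build, so chromosomes were taken by gene name. Named members were those called, the 3 highest and lowest of each line, the 10 widest ranges, the 5 highest and lowest levels, the P stalk, the 5S partners and the paralogues, of which a selection is printed; Rpl13, Rpl35, Rps25 and Gas5 were added after their values were seen, as were the near copies shown. Members and lists were chosen with earlier results of these data known. Alternatives were other scalings, filters and tools (DESeq2 1.42.0, limma 3.58.1), pseudogene entries added, a replicate block and each library left out. Added after seeing the data were near copies, total counts and the removal of immunoglobulin entries. No 2 libraries held the same values. A few items are not reported here.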

Additional observations from a re-analysis of the deposited data

How the results depend on the processing

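DESeq2, limma, RLE and upper-quartile scaling, TMM factors from other genes, both other filters, added pseudogene entries, added near copies, removed immunoglobulin entries and each left-out library kept the sign of the members' median in all 5 lines. With total counts the medians were 0.05, 0.19, -0.18 and -0.31 in IL6Myc-1 to IL6Myc-4; upper-quartile scaling gave 0.45 in IL6Myc-2 and -0.26 in IL6Myc-3, and no filter gave 0.45 in IL6Myc-2. Without 1 library the median ranged from 0.46 to 0.49 in IL6Myc-2 and from -0.45 to -0.42 in IL6Myc-4. With total counts 2 members passed the F-test with the size threshold instead of 6, 17 instead of 27 were lower in IL6Myc-1, 3 were lower in IL6Myc-2 and 3 higher in IL6Myc-3. Counts near 0 moved by 1: 1 lower in IL6Myc-2 with no filter, 1 higher in IL6Myc-3 under upper-quartile scaling, and 0 instead of 1 higher in IL6Myc-4 (Rpl15) under limma, added pseudogene entries or added near copies. In IL6Myc-5, 0 instead of 1 was lower (Rpl34) under upper-quartile scaling, TMM factors from other genes, no filter, limma, removed immunoglobulin entries and the replicate block. Without 1 library these counts ranged from 0 to 1 in IL6Myc-3, IL6Myc-4 and IL6Myc-5. The 10 member calls over all pairs of lines became 6 with near copies and 6 with total counts. The summed share in IL6Myc-1 to IL6Myc-5 was 10.6%, 11.5%, 9.26%, 8.69% and 11.9% with pseudogene entries, 11.4%, 12.3%, 9.91%, 9.32% and 12.7% with near copies, and 9.85%, 11.3%, 8.7%, 8.04% and 11.1% without immunoglobulin entries, where IL6Myc-2 was highest. With pseudogene entries 8 members were called, Rps18 and Rps2 added. Rpl10 in IL6Myc-4, at -0.14, ranged from -0.4 to 0.09 with 1 library left out, the first without replicate 2 and the second without replicate 3 of that line. Where no construction of the alternative shows it, the cause was not tested. Replicate numbers did not pair the libraries: same-numbered libraries of different lines correlated at -0.08 to 0.11 in their deviations, and 7 of 15 libraries correlated best with their own number. With the replicate block 75 members differed among the lines and 6 were called, as without it. Technical replicates of 1 line each limit all comparisons to these 5 cultures.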
